A study of Mus musculus with 10 samples.

Results

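Cluster 23 of the authors' single-cell map held 2022 of 44986 cells from mouse lung tumours, taken by the cluster number in the deposited table, which divides the cells into 33 clusters. It is 1 of a pair of tumour cell clusters of similar size; the other, cluster 21, held 2071 cells. Mice carried tumours grown from KP cells, a mouse lung adenocarcinoma line, which were injected into a vein of syngeneic hosts and seeded the lung. Tumour-bearing mice received SHP099, SX682, both drugs together (the combination) or vehicle for 11 days. SHP099 is an allosteric inhibitor of the phosphatase SHP2, and SX682 is a blocker of the neutrophil receptors CXCR1 and CXCR2. In each of the 4 treatments, live cells of 3 mice were labelled with hashtag antibodies and pooled before capture, so the 12 mice can be told apart, while capture and treatment cannot be told apart. All tumours derive from 1 line, and the labels used here give no strain, age, sex or dose. Cluster 23 contributed 47, 63 and 42 cells in the SHP099 mice, 221, 95 and 51 in the SX682 mice, 141, 260 and 94 in the combination mice, and 527, 280 and 201 in the vehicle mice.

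SHP2, encoded by Ptpn11, relays signals from receptor tyrosine kinases to RAS and the kinase ERK, which drives growth genes and their own feedback inhibitors. Lung adenocarcinoma cells also secrete chemokines of the CXCL family, among them Cxcl1, Cxcl2, Cxcl3 and Cxcl5, which draw neutrophils through the receptor CXCR2. Glycolysis splits glucose to pyruvate and lactate, and its enzymes, like the mitophagy protein Bnip3, are induced by hypoxia-inducible factors when oxygen is short.

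Expression was counted as unique molecular identifiers (UMIs, 1 per captured RNA molecule) and summed per mouse, giving 861791 to 10418156 UMIs a mouse. Levels are in CPM (counts scaled to a common library total), which cannot separate fewer expressing cells from less RNA per cell. Cluster 23 cells had a median of 15136 UMIs, against 7395 in cluster 21 and 1085 in the authors' neutrophils. The per-mouse medians were 17261, 16968 and 19092 UMIs with SHP099, 20018, 18442 and 17457 with SX682, 9400, 10655 and 12939 with the combination, and 16427, 14288 and 17182 with vehicle, so the combination cells were the shallowest. In all cells, 1009 cell barcodes occurred in more than 1 pool, 84 cluster 23 cells carried such a barcode, and none was shared by 2 mice of a pool. Correlations of log CPM between mice of a treatment ranged between 0.924 and 0.942 with SHP099, the treatment with the fewest cells, and between 0.983 and 0.989 with vehicle.

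The 4 markers of the label were all detected in cluster 23, although Epcam, an epithelial adhesion molecule, was low. Over the 12 mice Epcam ranged between 61.0 and 166 CPM (median 105) in cluster 23 and between 601 and 1645 CPM (median 977) in cluster 21, with every mouse lower in cluster 23. Krt8 and Krt18, the paired keratins of simple epithelia, had medians of 3483 and 2606 CPM in cluster 23, against 4485 and 1615 CPM in cluster 21. Cxcl5 had a median of 167 CPM (range 66.9 to 472) in cluster 23 and 50.5 CPM (23.6 to 319) in cluster 21, and was higher in cluster 23 in 12 of 12 mice. The lung regulator Nkx2-1 had a median of 0 in both, and the surfactant gene Sftpc had a median of 3.89 CPM in cluster 23, against 119689 CPM in cluster 24. The clusters were built from these genes, so the differences describe the clustering and carry no test.

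Several genes taken as examples, with no test, had higher levels in cluster 23 than in cluster 21. The chromatin proteins Hmga2 and Hmga1 had medians of 115 and 358 CPM in cluster 23, against 23.2 and 82.0 CPM in cluster 21. The proliferation genes Mki67, Top2a and Ube2c had medians of 45.8, 128 and 252 CPM in cluster 23, against 4.54, 8.97 and 11.8 CPM in cluster 21. The secreted matrix protein Spp1 and the intermediate filament Vim had medians of 1772 and 3041 CPM in cluster 23 and 334 and 1455 CPM in cluster 21. Csf2, the granulocyte-macrophage growth factor, had medians of 78.9 CPM in cluster 23 and 7.65 CPM in cluster 21. Each of these 8 genes was higher in cluster 23 in all 12 mice. Other examples ran the other way: the gut epithelium genes Lypd8, Muc3 and Prap1 had medians of 11.3, 6.10 and 2.37 CPM in cluster 23, against 1555, 545 and 387 CPM in cluster 21, and Hnf4a, a regulator of gut and liver epithelium, had medians of 36.1 and 93.7 CPM.

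Cluster 23 made up a smaller share of captured cells under SHP099 than under vehicle. It was 1.24%, 2.04% and 1.83% of all cells in the SHP099 mice, 5.83%, 2.30% and 1.78% in the SX682 mice, 3.33%, 4.80% and 3.20% in the combination mice, and 8.24%, 8.18% and 7.64% in the vehicle mice. Every treated mouse lay below every vehicle mouse, and SX682 mouse 1 was closest to them. The means were 1.71% ± 0.416 (SHP099), 3.31% ± 2.20 (SX682), 3.78% ± 0.886 (combination) and 8.02% ± 0.331 (vehicle) (SD, n = 3 each). An exact permutation test of the logit shares over all 4 treatments gave p = 0.00831, or 0.0392 after adjustment over the 33 clusters. Without any single SHP099, combination or vehicle mouse the adjusted exact p was between 0.0591 and 0.0945, so this call rested on each of those 9 mice. In an edgeR fit of the cell counts of all 33 clusters the log2 fold change was -2.23 ± 0.45 (SE) for SHP099 (adjusted p = 0.00105), -1.28 ± 0.43 for SX682 (0.129) and -1.08 ± 0.43 for the combination (0.0693). The differences of the combination from SHP099 (1.15 ± 0.44, adjusted p = 0.157) and from SX682 (0.19 ± 0.43, 0.809) did not pass the threshold of 0.05. The share is relative: neutrophils were 30.7%, 15%, 26.5% and 13% of cells on average under SHP099, SX682, the combination and vehicle. Within clusters 21 and 23 together, cluster 23 was 69.6% ± 8.16 under SHP099, 47.6% ± 9.25 under SX682, 51.3% ± 11.3 under the combination and 45.0% ± 9.58 under vehicle (SD, n = 3 each; exact permutation p = 0.0581).

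**Figure D1:**
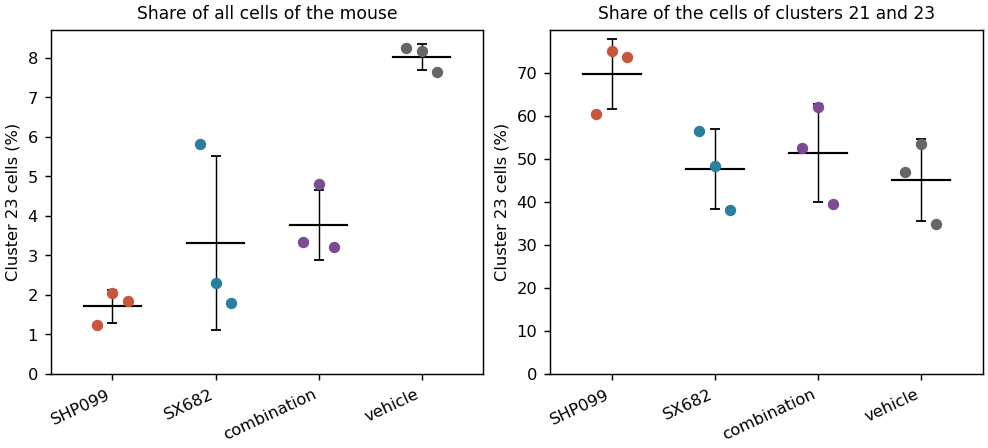
Cluster 23 cells in each mouse, by treatment, as a percentage of all cells (left) and of the cells of clusters 21 and 23 (right); points are mice, bars the mean and SD of 3 mice. On the left the SHP099 mice lie between 1.24% and 2.04% and the vehicle mice between 7.64% and 8.24%; on the right the groups lie closer, with means of 69.6% under SHP099 and 45.0% under vehicle.

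SHP099 changed the expression of many genes in cluster 23. Of 9936 genes tested, 1354 passed the threshold (13.6%), 685 higher (6.89%) and 669 lower (6.73%) under SHP099. Of the 17 measured genes of the glycolysis and hypoxia list 11 fell and 2 rose, with a list median of -0.89 on the log2 scale, against 0.02 for all genes tested. The genes that rose included the CXCR2 ligand Cxcl5, the regulators Foxa2 and Hnf4a, and genes of protein stress. The count was 740 without SHP099 mouse 2, 762 without vehicle mouse 1 and 845 without vehicle mouse 3, and in the 9 other fits that each left out 1 mouse it stayed within 1.5 times 1354.

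Bnip3, which marks mitochondria for removal, had 44.8, 13.8 and 26.0 CPM in the SHP099 mice, against 141, 124 and 139 CPM in the vehicle mice. The groups were far apart, and Bnip3 fell by 2.34 ± 0.38 (log2 fold change, SE; adjusted p = 8.69e-04). Phosphoglycerate kinase Pgk1 had 279, 203 and 206 CPM with SHP099 and 787, 608 and 754 CPM with vehicle, a log2 fold change of -1.65 ± 0.17 (adjusted p = 1.55e-05). Lactate dehydrogenase Ldha had 636, 558 and 495 CPM with SHP099 and 1430.4, 1212 and 1501 CPM with vehicle (-1.30 ± 0.13, adjusted p = 1.52e-05). The SHP099 mice lay below all vehicle mice for each of the 3 genes. Elsewhere in the pathway, the isomerase Tpi1, the aldolase Aldoa, the mutase Pgam1 and the pyruvate kinase Pkm fell by 1.20 ± 0.11, 1.21 ± 0.12, 1.07 ± 0.11 and 1.02 ± 0.10, with adjusted p between 8.42e-06 and 1.52e-05. The lactate exporter Slc16a3 had 33.9, 13.8 and 31.4 CPM with SHP099 and 135, 90.9 and 143 CPM with vehicle (-2.29 ± 0.33, adjusted p = 3.37e-04). All 8 of these falls passed in every fit that left out 1 mouse.

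The list did not move as 1 block. Hexokinase Hk2, which traps glucose in the cell, had 58.1, 48.2 and 90.9 CPM with SHP099 and 29.3, 31.0 and 39.8 CPM with vehicle, and rose by 0.97 ± 0.23 (adjusted p = 0.0103). The stress-induced gene Ndrg1 had 133, 122 and 203 CPM with SHP099 and 105, 108 and 88.1 CPM with vehicle (0.60 ± 0.18, adjusted p = 0.0407). Without SHP099 mouse 3 the Hk2 difference was 0.67, and it no longer passed without that mouse or without vehicle mouse 1; Ndrg1 passed in 5 of the 12 fits. The angiogenic factor Vegfa (0.35, adjusted p = 0.458) and Gapdh (-0.31, 0.132) did not pass. Pgk1, Pkm, Hk2, Ndrg1, Vegfa and Gapdh were chosen after their values were seen.

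The promoters of 3 of the fallen genes are shown because hypoxia-inducible factors bind a short core motif, and the 250 bases before the RefSeq start (build GRCm38.p6) could be searched for it. Capitals mark ACGTG or GCGTG on either strand, so the reverse forms CACGT and CACGC are marked too, and overlapping matches run together. The Bnip3 sequence is chr7:138909507-138909756 (minus strand, 5 matches), that of Pgk1 is chrX:106186850-106187099 (plus strand, 2 matches) and that of Ldha is chr7:46845554-46845803 (plus strand, 5 matches), each 5′ to 3′.
Bnip3: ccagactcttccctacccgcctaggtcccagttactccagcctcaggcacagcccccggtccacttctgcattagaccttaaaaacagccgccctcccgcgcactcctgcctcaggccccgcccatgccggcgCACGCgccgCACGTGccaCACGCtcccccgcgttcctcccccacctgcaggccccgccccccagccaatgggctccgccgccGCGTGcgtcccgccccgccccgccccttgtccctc
Pgk1: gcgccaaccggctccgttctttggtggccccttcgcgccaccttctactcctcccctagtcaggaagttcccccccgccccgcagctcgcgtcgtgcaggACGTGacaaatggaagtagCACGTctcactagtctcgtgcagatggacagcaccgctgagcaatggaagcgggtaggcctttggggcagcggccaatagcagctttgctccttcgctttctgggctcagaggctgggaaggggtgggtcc
Ldha: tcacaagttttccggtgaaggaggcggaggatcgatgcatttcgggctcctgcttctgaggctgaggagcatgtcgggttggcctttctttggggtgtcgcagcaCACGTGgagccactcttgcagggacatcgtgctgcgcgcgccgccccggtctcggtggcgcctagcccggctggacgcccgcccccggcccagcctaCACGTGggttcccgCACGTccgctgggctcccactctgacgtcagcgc
Of 18 genes of the list found among the RefSeq promoters, 14 (77.8%) held a match, against 10431 of 27025 promoters of all genes (38.6%). Aldoa, Tpi1, Pkm and Vegfa held none in this window, so genes with and without the letters fell under SHP099. Base composition was not matched between the sets, and a match is not a binding site.

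**Figure D2:**
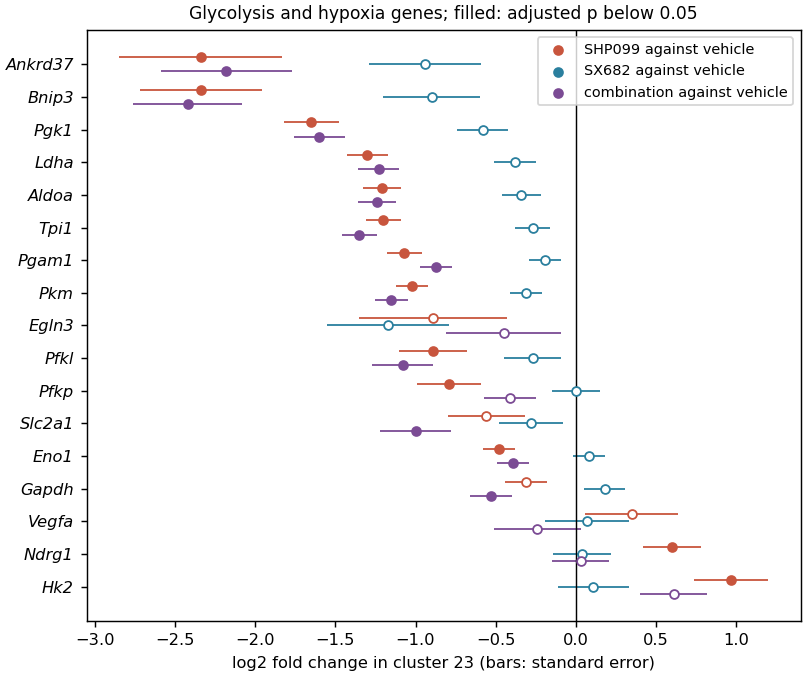
Log2 fold changes of the glycolysis and hypoxia genes in cluster 23 under SHP099, SX682 and the combination, each against vehicle; bars are 1 SE, and filled points have an adjusted p under 0.05. Bnip3 and Pgk1 lie at -2.34 and -1.65 under SHP099 and at -2.42 and -1.60 under the combination, while Hk2 and Ndrg1 lie above 0 under SHP099.

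Some regulators of foregut and gut identity rose under SHP099: 4 of 10 measured passed higher and none lower, with a list median of 0.24. Foxa2, a pioneer factor of endodermal organs, had 60.5, 67.3 and 63.8 CPM in the SHP099 mice, against 22.1, 24.2 and 22.4 CPM in the vehicle mice. The mice of each group lay close together with no overlap, and Foxa2 rose by 1.49 ± 0.12 (log2, SE; adjusted p = 3.37e-06). Hnf4a had 48.4, 61.2 and 61.7 CPM with SHP099 and 35.7, 39.4 and 34.5 CPM with vehicle (0.66 ± 0.14, adjusted p = 0.0054). The related factor Hnf4g also rose (1.24, adjusted p = 0.0175), in 9 of the 12 fits that left out 1 mouse. Of 8 measured gut-type and gastric genes, by contrast, 1 rose and 3 fell (median -0.17). E-cadherin Cdh1, which joins epithelial cells, had 234, 218 and 214 CPM with SHP099 and 123, 155 and 126 CPM with vehicle (0.72 ± 0.11, adjusted p = 5.53e-04). Epcam (0.22, adjusted p = 0.696), Krt8 (0.00, 0.994) and Krt18 (-0.48, 0.104) did not pass, and Krt19 fell by 0.44 (adjusted p = 0.00404).

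Of the CXCR2 ligands, Cxcl5 rose and the others did not pass. Cxcl5 had 249, 341 and 164 CPM in the SHP099 mice, against 68.3, 67.9 and 77.8 CPM in the vehicle mice. All SHP099 mice lay above the vehicle mice, and the log2 fold change was 1.83 ± 0.27 (adjusted p = 3.95e-04). Cxcl1 (-0.27, adjusted p = 0.681), Cxcl2 (-0.05, 0.974) and Cxcl3 (0.56, 0.378) did not pass. The myeloid growth factor Csf1 had 31.5, 24.5 and 15.1 CPM with SHP099 and 9.51, 7.02 and 9.06 CPM with vehicle (1.44 ± 0.31, adjusted p = 0.00695). Ceruloplasmin Cp, a copper-carrying ferroxidase of the acute phase, had 133, 104 and 32.5 CPM with SHP099 and 19.8, 9.29 and 10.3 CPM with vehicle (2.68 ± 0.37, adjusted p = 2.47e-04). Complement component C3 rose by 2.36 (adjusted p = 0.00609). Of 13 measured NF-kB target genes 5 rose and none fell, with a median of 0.36; the NF-kB subunit gene Nfkb1 had 63.0, 62.7 and 51.9 CPM with SHP099 and 36.6, 34.9 and 39.0 CPM with vehicle (0.69 ± 0.16, adjusted p = 0.00988; 0.64 and no longer passing without SHP099 mouse 2).

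Some chaperone genes rose. Of 12 measured heat shock genes 6 rose, and of 13 measured unfolded protein genes 6 rose, with none lower and medians of 0.40 and 0.44. Hspe1, the mitochondrial co-chaperonin, had 688, 802 and 802 CPM with SHP099 and 416, 418 and 479 CPM with vehicle (0.81 ± 0.09, adjusted p = 3.93e-05). Ddit3, a transcription factor of endoplasmic reticulum stress, had 48.4, 69.6 and 139.6 CPM with SHP099 and 19.2, 25.2 and 19.9 CPM with vehicle (2.01 ± 0.30, adjusted p = 4.33e-04). Its upstream factor Atf4 had 196, 174 and 215 CPM with SHP099 and 129, 126 and 115 CPM with vehicle (0.66 ± 0.12, adjusted p = 0.00182). For all 3 genes the SHP099 mice lay above the vehicle mice. Gclc, an enzyme of glutathione synthesis, had 165, 191 and 146 CPM with SHP099 and 91.1, 106 and 95.1 CPM with vehicle (0.79, adjusted p = 0.00129), 1 of 4 genes among 11 of the oxidative stress list that rose. The respiratory chain subunit Cox7c rose by 0.85 (adjusted p = 1.13e-04), 1 of 4 among 14 measured genes of oxidative phosphorylation, whose median was 0.06.

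Genes of the drug's own pathway passed at a share near the 13.6% of all genes: 2 of 19 measured ERK feedback and output genes and 2 of 18 genes of the SHP2 and RAS list. Ptpn11 itself, whose protein is inhibited and whose transcript was not targeted, had 42.4, 41.3 and 37.9 CPM with SHP099 and 52.6, 49.6 and 49.8 CPM with vehicle (-0.32 ± 0.12, adjusted p = 0.0803). Of the ERK genes Epha4 rose (0.87) and 1 fell. The ERK-induced factor Etv4 had 21.8, 16.1 and 18.4 CPM with SHP099 and 31.7, 28.9 and 34.7 CPM with vehicle (-0.78 ± 0.21, adjusted p = 0.0205), in 8 of 12 fits that left out 1 mouse. The ERK phosphatase Dusp6 had 40.0, 56.6 and 45.4 CPM with SHP099 and 58.6, 63.2 and 59.7 CPM with vehicle, a difference of -0.33 that did not pass (adjusted p = 0.331). Spry4 (0.07) and Etv5 (0.10) lay near 0. The kinase genes Map2k1 and Map2k2, which encode MEK, fell by 0.72 (adjusted p = 0.0148) and 0.53 (0.00201). The EGFR ligand betacellulin, Btc, had 82.3, 70.4 and 99.5 CPM with SHP099 and 187, 167 and 210.2 CPM with vehicle (-1.17 ± 0.17, adjusted p = 3.36e-04), and Areg fell by 0.53 (0.0214).

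A surface and a secreted protein fell far. The tetraspanin-like Tm4sf1 had 488, 242 and 294 CPM with SHP099 and 1674, 1058 and 1840 CPM with vehicle (-2.17 ± 0.27, adjusted p = 1.01e-04). The activin subunit Inhba had 13.3, 6.12 and 3.25 CPM with SHP099 and 45.8, 37.2 and 46.3 CPM with vehicle (-2.57 ± 0.37, adjusted p = 3.91e-04). For both genes the SHP099 mice lay far below the vehicle mice. Of 18 measured cell cycle genes 2 fell, the nucleotide enzymes Tyms (-0.82, adjusted p = 0.00877) and Rrm2 (-1.12, 0.00709).

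Transcripts of other cell types and of RNA quality also moved with SHP099. The summed level of the macrophage list was 62.8 to 83.8 CPM in the SHP099 mice, 97.9 to 451 CPM in the SX682 mice, 139 to 203 CPM in the combination mice and 437 to 474 CPM in the vehicle mice; 6 of its 9 measured genes fell under SHP099 and the list median was -2.77. Its marker C1qb had 3.63, 0 and 0 CPM with SHP099 and 46.4, 65.5 and 44.8 CPM with vehicle. The class II antigen chain Cd74 had 15.7, 132 and 70.3 CPM with SHP099 and 446, 629 and 603 CPM with vehicle, and 4 of 6 class II genes fell (median -2.92). The mitochondrial share of UMIs had mean medians of 3.20%, 2.85%, 3.09% and 2.20% under SHP099, SX682, the combination and vehicle. Gm42418 and AY036118, which overlap a ribosomal RNA gene, rose by 1.83 and 2.25. The part of these differences in the other results was not tested.

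The SHP099 differences were also fitted in the cells with 2 or fewer UMIs of the neutrophil genes S100a8, S100a9, Csf3r, Il1r2 and G0s2. There 718 of 8373 genes passed (8.58%), 348 higher (4.16%) and 370 lower (4.42%), and 659 of them were called in all cells with the same sign. The log2 fold changes in these cells were -2.32 for Bnip3, -1.61 for Pgk1, 2.07 for Cxcl5, 1.38 for Foxa2 and -2.87 for Inhba, each past the threshold. Other falls were not called there. Of 17 measured keratin and junction genes, the list of Krt19, 3 passed higher and 0 lower in edgeR (8 at an unadjusted p under 0.05). In all cells 4 of 18 had passed lower. Of 7 gut-type and gastric genes 1 passed higher and 0 lower (3 at an unadjusted p under 0.05). In these cells 10 of 16 glycolysis genes fell and 1 rose, and 6 of 7 macrophage genes fell (median -4.65). Of 6 class II genes 1 passed lower, while 5 had an unadjusted p under 0.05 and the list median was -2.74, close to that in all cells. Cxcl2, a product of neutrophils as well as of tumour cells, was the exception among the CXCR2 ligands: it fell by 1.20 (adjusted p = 0.0258) in these cells. Neutrophil transcripts outside the 5 counted genes also differed there, with sums of 123 to 158 CPM with SHP099 and 216 to 252 CPM with vehicle. Of 6 such genes tested 2 passed lower (median -1.14). The part of this remaining neutrophil RNA in the fall of Cxcl2 was not tested.

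In bulk RNA-seq of sorted Epcam+ cells from other mice of the study (3 SHP099 and 3 vehicle libraries), 23 of 20314 genes passed (0.113%), 1 higher (0.00492%) and 22 lower (0.108%). Of the 1354 genes called in cluster 23, 1335 were tested in bulk, 858 had the same sign and 1 passed. The same-sign share over all genes tested in both is not given here, so the 858 are a description only. Of the 18 genes with the largest changes that were tested in bulk, 10 had the same sign. The gene that passed was Cxcl5, with 375, 271 and 259 CPM in the SHP099 libraries, against 98.0, 103 and 81.6 CPM in the vehicle libraries (1.68 ± 0.17, adjusted p = 0.0313). Bnip3 (-0.33, adjusted p = 0.645) and Tpi1 (0.02, 0.987) did not pass in bulk. The sort selected on Epcam, which was low in cluster 23, and the share of cluster 23 cells in the bulk libraries was not measured.

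**Figure D3:**
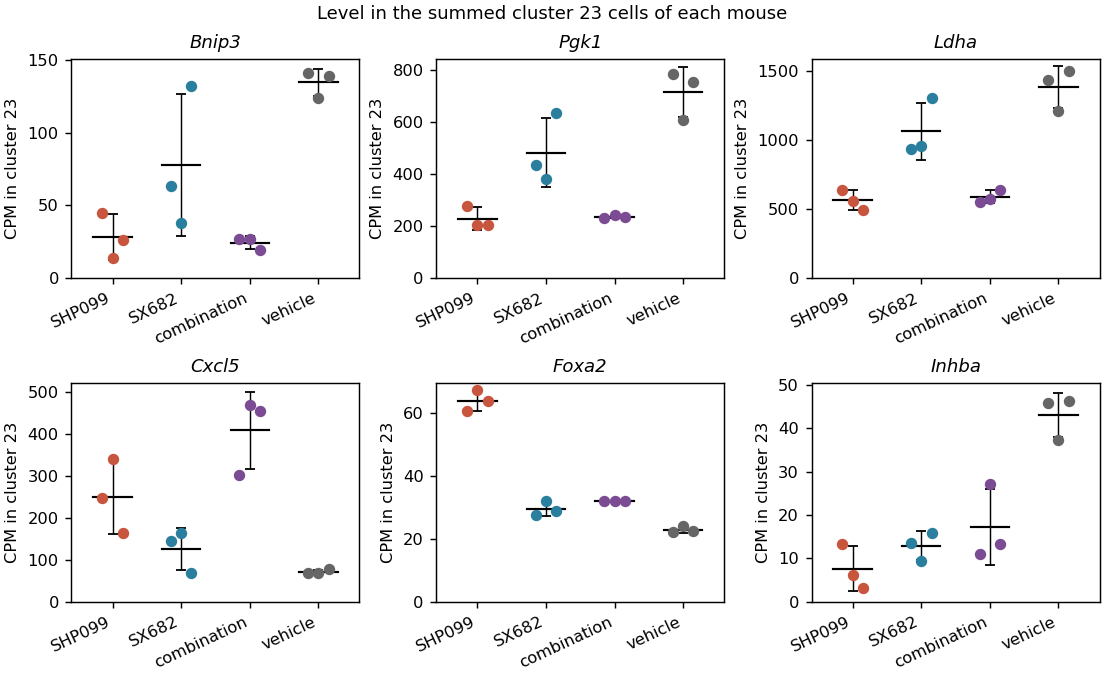
CPM of Bnip3, Pgk1, Ldha, Cxcl5, Foxa2 and Inhba in the summed cluster 23 cells of each mouse under SHP099, SX682, the combination and vehicle; points are mice, bars the mean and SD of 3 mice. Foxa2 lies between 60.5 and 67.3 CPM in SHP099 mice, at 32.1 CPM in all combination mice and between 22.1 and 24.2 CPM in vehicle mice.

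SX682 alone changed few genes. Of 9936 tested, 70 passed (0.705%), 15 higher (0.151%) and 55 lower (0.554%), while 1034 had an unadjusted p under 0.05. The count was 27 without SX682 mouse 2, 45 without SX682 mouse 1, 119 without SX682 mouse 3, 25 without vehicle mouse 1 and 37 without vehicle mouse 3. It also depended on the processing: DESeq2 called 29 higher and 132 lower. With equal cell numbers per mouse, where fewer counts enter each sum, 1 passed higher and 2 lower. The ribosomal protein gene Rpl37 had 2281, 2305 and 2375 CPM with SX682 and 3474, 3698 and 3613 CPM with vehicle (-0.63 ± 0.06, adjusted p = 3.50e-04). Rpl35 had 1029, 1045 and 1128 CPM with SX682 and 1677, 1684 and 1665 CPM with vehicle (-0.65 ± 0.08, adjusted p = 0.00253). Inhba had 13.5, 9.42 and 15.9 CPM with SX682 and 45.8, 37.2 and 46.3 CPM with vehicle (-1.76 ± 0.27, adjusted p = 0.00578). The groups did not overlap for any of these genes, and the 3 falls passed in every fit that left out 1 mouse.

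Among the genes that rose with SX682, the small nuclear protein gene Erh had 213, 215 and 219 CPM, against 138, 121 and 144 CPM with vehicle (0.68 ± 0.09, adjusted p = 0.00286). The mitochondrial protein Chchd2 had 656, 674 and 627 CPM with SX682 and 454, 469 and 468 CPM with vehicle (0.49 ± 0.08, adjusted p = 0.00624). Cxcl5 had 146, 164 and 68.1 CPM with SX682, where mouse 3 lay among the vehicle mice, and did not pass (0.88 ± 0.26, adjusted p = 0.192). None of 17 measured glycolysis genes passed in edgeR (median -0.27), while 8 had an unadjusted p under 0.05 and DESeq2 called 3. Bnip3 had 63.3, 37.7 and 132 CPM with SX682 (-0.90, adjusted p = 0.251) and Pgk1 434, 381 and 634 CPM (-0.58, 0.138), both chosen after their values were seen. In cells with 2 or fewer neutrophil UMIs, where 56 of 8373 genes passed (0.669%; 0.107% higher and 0.561% lower), Bnip3 fell by 1.39 (adjusted p = 0.0182). A plasma cell list summed to 2183 CPM in 1 SX682 mouse, against at most 251 CPM in the other two SX682 mice and 252 to 366 CPM in the vehicle mice.

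The combination and SHP099 were compared with the same vehicle mice, so the values of both comparisons stand side by side and their likeness is no result. Of 9936 genes 885 passed (8.91%), 388 higher (3.90%) and 497 lower (5.00%). The count was 480, 525 and 558 without combination mouse 1, 2 or 3, and 404, 529 and 487 without vehicle mouse 1, 2 or 3. Cxcl5 had 303, 469.9 and 455 CPM in the combination mice, against 68.3, 67.9 and 77.8 CPM in the vehicle mice (2.53 ± 0.26, adjusted p = 4.63e-05). All 3 combination mice lay above the vehicle mice and every SX682 mouse. Cxcl1 had 293, 220.1 and 256 CPM with the combination and 98.9, 113 and 112 CPM with vehicle (1.25 ± 0.31, adjusted p = 0.0212), and passed in 7 of 12 fits that left out 1 mouse. Cxcl2 had 1139, 806 and 1357 CPM with the combination and 566, 339 and 515 CPM with vehicle, a difference that did not pass (1.21, adjusted p = 0.162). Csf1 had 28.6, 33.0 and 35.8 CPM with the combination (1.90 ± 0.26, adjusted p = 4.37e-04).

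All 12 glycolysis and hypoxia genes that passed under the combination fell, of 17 measured (median -1.0, against 0.02 for all genes). Bnip3 had 26.8, 27.2 and 19.4 CPM in the combination mice (-2.42 ± 0.34, adjusted p = 4.56e-04) and Pgk1 had 231, 242 and 234 CPM (-1.60 ± 0.16, adjusted p = 4.56e-05). Tpi1 had 346, 343 and 329.9 CPM with the combination and 894, 784 and 925 CPM with vehicle (-1.35 ± 0.11, adjusted p = 1.23e-05). The 3 genes lay in a narrow range in the combination mice, far below the vehicle mice. In cells with 2 or fewer neutrophil UMIs 12 of 16 genes of the list fell, while 366 of 8373 genes passed (4.37%), 148 higher (1.77%) and 218 lower (2.60%).

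Some keratin, immediate early and mesenchymal genes also fell with the combination, although most members of each list did not pass. Krt18 had 1275, 1486 and 1726 CPM with the combination and 3201, 2889 and 3152 CPM with vehicle (-1.04 ± 0.19, adjusted p = 0.00315), and 5 of 18 measured keratin and junction genes fell (median -0.17), among them Krt8 (-0.49, adjusted p = 0.0227, in 8 of 12 fits) and Krt20 (-0.95, 0.00341). Of 15 measured immediate early genes, which respond to growth factor signals, 5 fell (median -0.37). Ier2 had 245, 229 and 232 CPM with the combination and 441, 448 and 402 CPM with vehicle (-0.87, adjusted p = 6.75e-04), and Jun had 226, 211 and 182 CPM with the combination and 410, 385 and 307 CPM with vehicle (-0.83, 0.00131). The groups did not overlap for these 3 genes. Vim fell by 0.62 (adjusted p = 0.00701), 1 of 4 that fell among 10 measured mesenchymal genes (median -0.71). Igfbp3, which binds insulin-like growth factors, had 43.1, 82.8 and 66.4 CPM with the combination and 244, 203 and 233 CPM with vehicle (-1.79 ± 0.17, adjusted p = 2.79e-05). Btc (-1.0, adjusted p = 0.00112), Areg (-0.79, 0.00268) and Etv4 (-0.76, 0.0136) fell as well, and Dusp6 did not pass (-0.52, 0.108).

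Genes that rose with the combination included the iron-binding protein Lcn2, with 35.6, 47.8 and 38.8 CPM with the combination and 18.1, 11.6 and 12.8 CPM with vehicle (1.5, adjusted p = 0.00389). Transcripts of other cells moved too. The club cell gene Scgb1a1 had 67.6, 348 and 20.2 CPM with the combination and 1.18, 2.06 and 0.503 CPM with vehicle, and the airway list summed to 49.5 to 368 CPM, against 4.60 to 12.4 CPM. Of 20 measured neutrophil genes outside the 5 used for counting, 11 rose, and their sums were 1358 to 1996 CPM with the combination, against 714 to 891 CPM with vehicle. Acod1, an enzyme of activated myeloid cells, had 48.4, 35.7 and 56.0 CPM with the combination and 17.0, 12.8 and 16.1 CPM with vehicle. Of 13 measured NF-kB target genes 5 rose in all cells (median 0.53). In cells with 2 or fewer neutrophil UMIs none of 11 passed in edgeR, while 4 had an unadjusted p under 0.05 and the median was 0.40. The log2 fold change of Cxcl5 in these cells was 2.74. Foxa2 had 32.1 CPM in each combination mouse and rose by 0.49 ± 0.12 (adjusted p = 0.0152), in 8 of 12 fits that left out 1 mouse. In cells with 2 or fewer neutrophil UMIs none of 10 regulators of foregut and gut identity, Foxa2 among them, passed higher in edgeR, and 1 passed lower.

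Directly against SHP099, fewer genes differed. Of 9936 genes 173 passed (1.74%), 77 higher (0.775%) and 96 lower (0.966%) with the combination. The count was 62 and 76 without SHP099 mouse 1 or 2, and 112, 61 and 35 without combination mouse 1, 2 or 3. Foxa2 had 32.1, 32.1 and 32.1 CPM in the combination mice, against 60.5, 67.3 and 63.8 CPM in the SHP099 mice (-1.0 ± 0.12, adjusted p = 0.00303). Cdh1 had 128, 133 and 131 CPM with the combination and 234, 218 and 214 CPM with SHP099 (-0.76 ± 0.11, adjusted p = 0.0064). Tm4sf1 had 1205, 1219 and 1737 CPM with the combination and 488, 242 and 294 CPM with SHP099 (2.03 ± 0.27, adjusted p = 0.00303). The groups did not overlap for these genes, and the 3 calls held in every fit that left out 1 mouse. Ddit3 (-1.80, adjusted p = 0.0141) and Hnf4a (-0.85, 0.0124) were lower with the combination in 10 of 12 fits each. The epithelial factor Klf4 had 99.1, 112 and 91.8 CPM with the combination and 183, 182 and 160 CPM with SHP099 (-0.78, adjusted p = 0.00444). Cxcl5 (0.69, adjusted p = 0.189) did not pass, and none of 17 glycolysis genes passed in edgeR or DESeq2 (1 at an unadjusted p under 0.05 in edgeR); Bnip3 (-0.08, 0.973) and Pgk1 (0.05, 0.933) were chosen after their values were seen. In cells with 2 or fewer neutrophil UMIs 17 of 8373 genes passed (0.203%), 11 higher (0.131%) and 6 lower (0.0717%), with 15 of them called in all cells. None of 10 regulators of foregut and gut identity, the list of Foxa2 and Hnf4a, passed there in edgeR (2 at an unadjusted p under 0.05). The same held for 17 keratin and junction genes, the list with Cdh1 (8 at an unadjusted p under 0.05).

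Against SX682 alone, 445 genes passed (4.48%), 257 higher (2.59%) and 188 lower (1.89%) with the combination; the count was 267 without SX682 mouse 1, and 260, 288 and 283 without combination mouse 1, 2 or 3. Cxcl5 had 303, 469.9 and 455 CPM with the combination, against 146, 164 and 68.1 CPM with SX682 (1.65 ± 0.26, adjusted p = 0.00106). Of 17 glycolysis genes 10 fell and none rose (median -0.72), among them Tpi1 (-1.08, adjusted p = 1.97e-05), Pgk1 (-1.02, 0.00136) and Bnip3 (-1.52, 0.0229, in 9 of 12 fits). Of 14 measured oxidative phosphorylation genes 3 rose and none fell. The respiratory chain subunit Cox6c had 907, 853 and 891 CPM with the combination, against 504, 493 and 481 CPM with SX682 (0.84 ± 0.08, adjusted p = 7.3e-06), and the ATP synthase subunit Atp5k had 128, 123 and 140 CPM with the combination, against 48.8, 48.5 and 57.8 CPM with SX682 (1.35, 3.15e-06). Of 15 immediate early genes 5 fell, led by Ier2 (-0.87) and Jun (-0.75). In cells with 2 or fewer neutrophil UMIs 201 of 8373 genes passed (2.40%), and 8 of 16 glycolysis genes fell.

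Whether a treatment acted differently on clusters 23 and 21 was tested as an interaction within mice. For SHP099, 78 of 10213 genes passed (0.764%), 58 with a higher (0.568%) and 20 with a lower effect (0.196%) in cluster 23. The count was 18, 14 and 46 without SHP099 mouse 1, 2 or 3, 45 and 42 without combination mouse 2 or 3, and 37, 26 and 17 without vehicle mouse 1, 2 or 3. Cxcl5 had 172 to 359 CPM with SHP099 and 70.9 to 81.3 CPM with vehicle in cluster 23, and 23.5 to 63.9 CPM with SHP099 and 25.4 to 41.6 CPM with vehicle in cluster 21. The SHP099 mice lay apart from vehicle in cluster 23 and overlapped with it in cluster 21, and the effects differed by 1.52 ± 0.31 (adjusted p = 0.0247). That call did not pass when any single SHP099 mouse or vehicle mouse 3 was left out. Hnf4a differed by 1.28 ± 0.22 (adjusted p = 0.0164), with 50.4 to 64.5 CPM with SHP099 and 36.1 to 41.2 CPM with vehicle in cluster 23, and 62.8 to 91.8 CPM with SHP099 and 108 to 150.3 CPM with vehicle in cluster 21; it did not pass without SHP099 mouse 1 (1.25) or 2 (1.34). Bnip3 (-0.82, adjusted p = 0.495), Pgk1 (-0.13, 0.898) and Foxa2 (0.61, 0.661) did not pass: Pgk1 had 213 to 289.7 CPM with SHP099 and 635 to 823 CPM with vehicle in cluster 23, and 334 to 655 CPM with SHP099 and 1128 to 1416 CPM with vehicle in cluster 21. These 5 genes were chosen after their values were seen. In the SHP099 mice cluster 23 had 47, 63 and 42 cells, or 60.3%, 75% and 73.7% of clusters 21 and 23 together. Cluster 21 thus had fewer cells than cluster 23 in each of them. No SHP099 mouse had 10 cluster 21 cells with 2 or fewer neutrophil UMIs, so no SHP099 interaction could be fitted in such cells. The part of neutrophil transcripts in the SHP099 differences between the clusters was not tested.

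For SX682 no gene passed the interaction in edgeR (0% of 10213, with 396 at an unadjusted p under 0.05) or in DESeq2 (162). For the combination 21 passed (0.206%), 13 higher (0.127%) and 8 lower (0.0783%) in cluster 23. The count was 32 without SX682 mouse 3, 6, 10 and 10 without combination mouse 1, 2 or 3, and 12 and 10 without vehicle mouse 1 or 3. Ankrd1, a stretch-responsive YAP target, had 203 to 231 CPM with the combination and 120.3 to 160.1 CPM with vehicle in cluster 23, and 97.5 to 125 CPM with the combination and 19.5 to 24.1 CPM with vehicle in cluster 21 (-1.60 ± 0.19, adjusted p = 7.85e-04). None of 9654 genes passed the combination interaction in edgeR in cells with 2 or fewer neutrophil UMIs (662 at an unadjusted p under 0.05), and there the Ankrd1 value was 0.68. That fit held 8 of the 12 mice and no SHP099 mouse. Cxcl5 did not pass (-0.41, adjusted p = 0.557), with 318 to 495 CPM with the combination and 70.9 to 81.3 CPM with vehicle in cluster 23, and 198 to 317 CPM with the combination and 25.4 to 41.6 CPM with vehicle in cluster 21.

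Part of the cluster 23 cells carried neutrophil transcripts. With 10 or more UMIs of S100a8, S100a9, Csf3r, Il1r2 and G0s2 together, 581 cells (28.7%) were called high, 1309 (64.7%) with 2 or fewer were called low, and 132 (6.53%) lay between. None of the 2022 cells was in the authors' table of 9540 neutrophils. Just inside the upper threshold, the 21 cells with 10 or 11 such UMIs had a median of 14.0 UMIs of the other neutrophil list, and just outside it the 33 cells with 8 or 9 had 16.0; at the lower threshold the 55 cells with 2 had 7.00 and the 19 cells with 3 had 7.00. The mean share of high cells was 27.4% ± 10.5 under SHP099, 28.4% ± 14.8 under SX682, 35.8% ± 11.7 under the combination and 26.0% ± 5.35 under vehicle (SD, n = 3 each; exact permutation p = 0.749). With every cell thinned to 2000 UMIs, which leaves out shallower cells, the means were 5.68% under SHP099, 5.57% under SX682, 11.0% under the combination and 7.77% under vehicle (exact permutation p = 0.232). Thinned to 1000 UMIs the same exact test gave p = 0.0153, so the call depended on the depth chosen.

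High cells were not particular to cluster 23. They were 63.2% of cluster 21 and 21.3%, 20.5% and 27.7% of clusters 13, 15 and 16, which are led by the myeloid genes Ms4a4a, C1qa and Arg1. In cluster 2, led by the T cell genes Lef1 and Tcf7, they were 3.28% of cells at a median of 1372 UMIs, and in cluster 18, led by the dendritic cell genes Clec9a and Xcr1, 2.79% at a median of 7208 UMIs. Thinned to 2000 UMIs the share was 8.40% in cluster 23, against 45.3% in cluster 21, 18.2%, 14.2% and 16.0% in clusters 13, 15 and 16, 1.87% in cluster 18 and 8.39% in the 572 cells of cluster 2 deep enough to be thinned. At that depth the share in cluster 23 was level with that in cluster 2, where only 572 of 2834 cells entered, and above that in cluster 18. It was below the 12.3%, 9.36%, 12.4% and 10.8% of clusters 1, 3, 6 and 10, led by Cd79a, Ly6c2, Gzma and Tmem100. Only part of the cells of those clusters were deep enough to be thinned. Other clusters lay lower, among them clusters 7 and 8 with 3.01% and 1.60%. How much of it is neutrophil RNA of the kind carried by cells of other types was not tested.

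High cells held neutrophil transcripts beside those of a tumour cell. Over the 10 mice with at least 10 high cells, the other neutrophil list had 49.8 ± 9.71 UMIs per high cell, 3.32 ± 0.873 per low cell and 52.9 ± 5.47 per neutrophil (mean ± SD over mice). The high value was a median of 97.1% of the neutrophil value in the same mouse, with a range of 63.6% to 119.9%. The 5 counted genes, which chose the cells, had 60.5 ± 12.7 UMIs per high cell and 102 ± 21.8 per neutrophil, a median of 61.4% of the neutrophil value with a range of 30.4% to 92.7%. The class was not uniform: the median of the other neutrophil list was 19.0 UMIs in the 117 cells with 10 to 19 counted UMIs and 81.0 in the 110 cells with 100 or more. The tumour list had 180.2 ± 66.0 UMIs per high cell, 137 ± 51.3 per low cell and 0.343 per neutrophil. The median UMI count was 19114 ± 4824 in high cells, 13691 ± 3475 in low cells and 1100.0 ± 118 in neutrophils, and was higher in high than in low cells in 9 of 10 mice. No doublet caller was run and the labels give no doublet step, so pairs captured in 1 droplet and uptake or expression in 1 cell cannot be told apart.

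In a fit that compared high with low cells within each mouse, 515 of 7661 genes passed (6.72%), 301 higher (3.93%) and 214 lower (2.79%). The higher genes were led by neutrophil genes that the counting did not use. Trem1, an activating receptor of neutrophils, had 89.7 ± 21.6 CPM in high cells, 2.47 ± 3.26 in low cells and 1311 in neutrophils (log2 fold change 5.96 ± 0.23). The cytokine gene Il1b had 994 ± 282 CPM in high cells, 25.4 ± 17.7 in low cells and 16386 in neutrophils (5.33 ± 0.17), and Cxcl2 had 1653 ± 591, 52.7 ± 17.9 and 26069 CPM (4.87 ± 0.11). Acod1 (5.66), Hdc (5.27), Nlrp3 (5.16), Clec4e (5.09), Ccrl2 (4.50) and Srgn (3.75) followed, each higher in 10 of 10 mice. Of the 22 genes of the other neutrophil list 15 passed the filter on low counts, and all 15 were higher (median 4.93). High cells were chosen for neutrophil transcripts, so this count describes the choice. Of the 301 higher genes 223 (74.1%) had a level in neutrophils above that in low cells, against 28.1% of all genes tested.

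Outside the neutrophil genes the classes differed less. Among the 7282 genes under 4 times higher in neutrophils than in low cells, 105 rose and 208 fell in high cells, with a median of -0.01. Slc7a11, the cystine importer, rose by 2.27 ± 0.14, with 75.9 CPM in high cells and 14.9 CPM in low cells. Epcam had 81.1 ± 27.7 CPM in high cells and 142 ± 54.4 CPM in low cells (-0.80 ± 0.13), and was lower in all 10 mice. The mucosal defence protein Dmbt1 had 131 CPM in high cells and 244 CPM in low cells (-0.80 ± 0.12), and the lipid carrier Apob had 87.6 and 149.6 CPM (-0.63), each lower in all 10 mice. Cxcl5 fell by 0.46 ± 0.11 (adjusted p = 0.009), with 188 CPM in high cells and 272 CPM in low cells, lower in 8 of 10 mice. Krt8 (0.06, adjusted p = 0.588) and Krt18 (-0.06, 0.745) did not pass. All 4 measured class II genes fell in high cells (median -1.87): Cd74 had 126 CPM in high cells and 477 CPM in low cells. Cells with 10 or more macrophage UMIs were 6.54% of high and 8.48% of low cells. Of the genes above, Cxcl5, Krt8, Krt18, Slc7a11 and Cd74 were chosen after their values were seen. CPM are shares of a cell's RNA, so added neutrophil RNA can lower the shares of other genes. With totals that leave out the neutrophil genes 322 rose and 192 fell. The part of added neutrophil RNA in the falls given here was not tested.

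**Figure D4:**
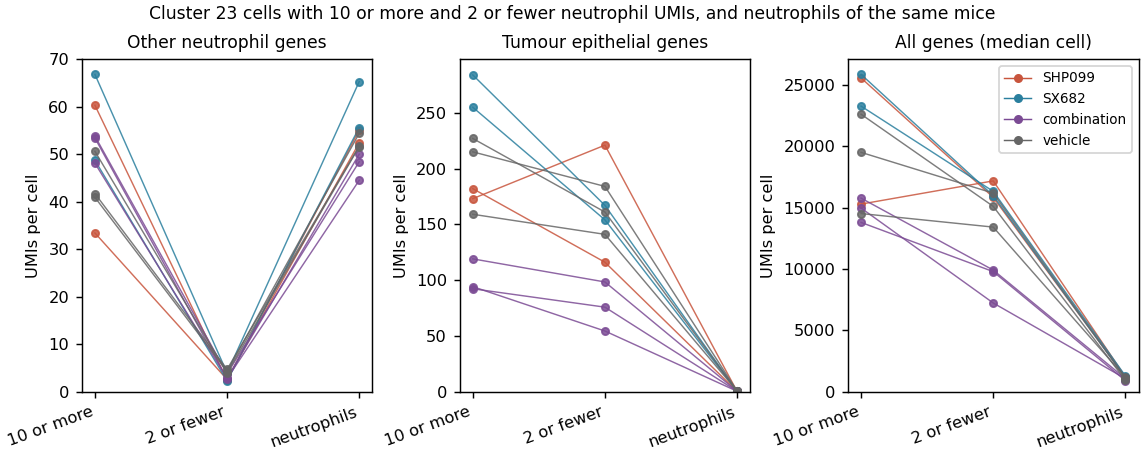
UMIs per cell in cells with 10 or more neutrophil UMIs, in cells with 2 or fewer and in neutrophils of the same mouse, for the other neutrophil list, the tumour list and all genes; each line is 1 of 10 mice, coloured by treatment. High cells lie near neutrophils on the neutrophil list (49.8 and 52.9 UMIs on average) and above low cells on the tumour list in all but 1 mouse (180.2 and 137 UMIs on average).

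By rank correlation over the 12 mice, the genes with levels most like Cxcl5 in cluster 23 were Ppih (rho 0.92), Xpo1 (0.90), Dynlt1a (0.89), Lpcat4 (0.89) and Cp (0.87), as a description over mice that share treatments and pools. Bnip3, Aldoa, Tpi1, Cp, Ddit3, Hspe1, Krt8, Jun, Erh, Rpl35, Cox6c and Il1b share exon bases with a gene on the opposite strand, and Pkm and Cd74 with one on the same strand. The strand setting of the counting is not given in the sources used here, so the counts of these genes are uncertain to that extent.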

How the data were processed

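Single cells were measured in 12 mice, 3 in each of 4 treatments. The deposited matrix holds UMI counts per gene and cell, aligned to mm10 with Cell Ranger among the tools in the submitters' processing notes; the authors' cell table gives a cluster and a mouse for each cell. Deposited bulk read counts per gene came from sorted Epcam+ cells; the notes also name STAR, HTSeq and DESeq2, without saying for which files. No filter beyond the authors' was applied to cells, and 0 columns of another series were present. Whether mice of a group came from separate litters or days is not given, so p-values measure the spread between these mice.

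Counts of cluster 23 were summed per mouse and fitted in 1 model over the 4 treatments with edgeR 4.0.16 (quasi-likelihood F test, TMM scaling, filterByExpr, Benjamini-Hochberg adjustment over all genes, R 4.3.3). High and low cells were compared with the mouse as a block, with at least 10 cells of each a mouse; clusters 23 and 21 with an interaction within mice. A call is an adjusted p under 0.05. Shares of cells were tested with exact permutation over all 15400 partitions of the 12 mice into the 4 treatments. The biological coefficient of variation was 12.3%. Fits were tested on simulated counts with known changes. Gene names were restored through GENCODE vM21, and promoters come from RefSeq.

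Alternatives were DESeq2 1.42.0, its size factors, another filter on low counts, a replicate block, fits of 2 treatments only, equal numbers of cells, thinned cells, cells with few neutrophil UMIs and leaving out each mouse; bulk values, the low-cell lists and a second set of epithelial clusters were added after seeing the data. Bulk counts and low-cell fits were compared by value only. The members and lists were chosen with earlier results of these data known. Named genes were, in each treatment comparison, up to 10 each way by fold change with a mean log2 CPM of at least 5 and no overlap, up to 4 genes per list with a call, the 4 markers, Ptpn11, Cxcr2 and the ligand and ERK genes; between high and low cells up to 12 each way with the same sign in every mouse; in interactions up to 5 each way. The T cell table was not used, and some items are not reported here.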

Additional observations from a re-analysis of the deposited data

Results flagged for a closer look

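Among 77 sets of values, each over the 10 mice in which high and low cells were compared, 11 held 1 mouse far from the rest. Chance flags about 1 set in 20. Acod1 in low cells was 5.58 CPM in combination mouse 1 (median of the mice 0.647), and Clec4e in low cells was 8.92 CPM in the same mouse (1.07). SHP099 mouse 3 stood apart in low cells for 3 genes, with Selenop at 538 CPM (median 278), Apob at 348 CPM (129.9) and Laptm4b at 121 CPM (69.2), over 25 low cells. SHP099 mouse 2 had a mitochondrial share of 4.71% in its 17 high cells (median 2.38%), AW112010 at 252 CPM in high cells (80.7) and Cp at 125 CPM in low cells (38.2). Ccl3 in high cells was 246 CPM in combination mouse 2 (75.2), and Selenop in high cells was 301 CPM in vehicle mouse 2 (152). SX682 mouse 2 had 65.3 UMIs of the other neutrophil list per neutrophil (median 52.0).

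Of the 78 genes with SHP099 and 21 with the combination whose effect differed between clusters 23 and 21 in the interaction test, 10 are given here. With SHP099 they include Cxcl5 (1.52) and Hnf4a (1.28), described above, Prl2c2 (4.01, adjusted p = 0.0246) and Prl2c3 (3.40, 0.0383), near-identical placental hormone genes whose counts can be split between copies, and Ggct (-3.40, 0.0246). Prl2c2 averaged 581 CPM with SHP099 and 1277 CPM with vehicle in cluster 23, and 25.6 CPM with SHP099 and 878 CPM with vehicle in cluster 21. Ggct averaged 6.79 CPM with SHP099 and 18.9 CPM with vehicle in cluster 23, and 20.2 CPM with SHP099 and 5.14 CPM with vehicle in cluster 21. With the combination they include Ankrd1 (-1.60), Slurp1 (3.12, adjusted p = 0.00103), Lcn2 (2.17, 0.00919), Inhba (-2.70, 0.0192) and Prap1 (2.09, 0.0108). Lcn2 averaged 42.7 CPM with the combination and 14.8 CPM with vehicle in cluster 23, and 56.2 CPM with the combination and 89.2 CPM with vehicle in cluster 21. Inhba averaged 18.1 CPM with the combination and 45.0 CPM with vehicle in cluster 23, and 20.4 CPM with the combination and 7.27 CPM with vehicle in cluster 21. None of the combination differences passed in edgeR in cells with 2 or fewer neutrophil UMIs, where 662 of 9654 genes had an unadjusted p under 0.05. That fit held 8 of the 12 mice and no SHP099 mouse, so the SHP099 differences could not be fitted in such cells.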

How the results depend on the processing

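With every mouse cut to the same number of cells, the counts of called genes were 407 (SHP099), 3 (SX682) and 151 (combination) against vehicle, and 8 and 114 for the combination against SHP099 and SX682, where fewer counts enter each sum; in low cells they were 718, 56, 366, 17 and 201. DESeq2 called 161 genes for SX682 and 309 for the combination against SHP099, and the combination and SX682 fitted alone gave 292 calls; the cause was not tested. Between high and low cells 89 genes passed with cells thinned to 2000 UMIs and 918 with a filter at a summed count of 10. The interaction in low cells, fitted over 8 mice, gave 5 genes for SX682 and 0 for the combination, and Ankrd1 and Cxcl5 there turned to 0.68 and 0.57. For SHP099 it could not be fitted, since no SHP099 mouse had 10 low cells in cluster 21. Without each mouse in turn the calls ranged from 740 to 1436 (SHP099), 25 to 119 (SX682), 404 to 1011 (combination), 35 to 204 (against SHP099) and 260 to 490 (against SX682); in low cells from 345 to 803, 3 to 104, 129 to 490, 1 to 52 and 140 to 250; between high and low cells from 348 to 548; and for interactions from 14 to 104, 0 to 2 and 6 to 32.

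The adjusted p of the share over 4 treatments ranged from 0.005 to 0.0945 without each mouse, that of the share within clusters 21 and 23 from 0.0386 to 0.182, and those of the high and low shares from 0.082 to 0.425 and 0.147 to 0.918. The log2 share differences ranged from -2.39 to -2.05 (SHP099), -1.97 to -0.98 (SX682), -1.30 to -0.98 (combination), 0.94 to 1.30 (against SHP099) and -0.10 to 0.89 (against SX682). Without clusters 19, 21, 22 and 24 in the total, taken as epithelial by Epcam and Cdh1, the combination share difference was -1.22 and passed (adjusted p = 0.0445). Cluster 19 is led by dendritic cell genes and has little Krt8; with it kept in the total, an alternative chosen after seeing the data, the difference was -1.18 and did not pass (0.0521). Thinned to 1000 UMIs, the share of high cells gave an exact permutation p of 0.0153.

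Same-numbered mice of different treatments showed low correlations of their deviations (18 pairs, r from -0.108 to 0.162, 2 above 0.1), and the main fits did not pair mice by number. Low correlations over sums of few cells cannot exclude that equal numbers mark a shared day or litter. With a replicate block the counts were 1301, 78, 864, 173 and 408, and the share differences -2.22, -1.34, -1.09, 1.13 and 0.24; without the mouse block 474 genes passed between high and low cells.

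Signs turned only for values that had not passed, apart from the Ankrd1 interaction above. Against vehicle under SHP099, Krt8 was 0.05 in low cells, 0.04 with equal cell numbers and between -0.14 and 0.12 without single mice; Cxcl1 was 1.17 and Cxcl2 0.27 with equal cell numbers, and without single mice Cxcl2 ranged from -0.68 to 0.23, Spry4 from -0.15 to 0.26, Etv5 from -0.08 to 0.30 and Epcam from -0.09 to 0.50. For the combination, Ptpn11 was 0.03 in low cells and 0.02 without combination mouse 3 or vehicle mouse 1, and Epcam ranged from -0.04 to 0.51 without single mice. Against SHP099, Pgk1 was -0.12 in low cells and -0.03 to 0.21 without single mice, and Bnip3 0.41 with equal cell numbers and -0.48 to 0.39 without single mice. Krt18 between high and low cells was 0.01 with 5 or more UMIs and 0.03 without SHP099 mouse 2, Pgk1 in the SHP099 interaction ranged from -0.46 to 0.32 without single mice, and the share of the combination against SX682 was -0.02, -0.10 and -0.02 without SX682 mouse 2 or 3 or combination mouse 2. Scaling by DESeq2 size factors turned no called gene named here. SHP099 mice had the fewest cells, which limits what low counts can show.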

Other observations

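Class I antigen presentation and interferon genes were measured as well; the fall of class II genes is given above. Of 15 measured class I genes 1 rose and 1 fell under SHP099, a share near the 13.6% of all genes. The non-classical class I gene H2-T23 had 83.6, 77.3 and 82.2 CPM with SHP099 and 30.2, 39.0 and 36.0 CPM with vehicle (1.22 ± 0.17, adjusted p = 2.64e-04), while its neighbour H2-T22 fell by 0.67 (0.0393, in 8 of 12 fits that left out 1 mouse); class I genes are close copies, so reads may be split between them. Under the combination, Tapbp, which loads peptides onto class I, had 99.7, 106 and 113 CPM, against 56.4, 73.1 and 75.0 CPM with vehicle (0.64 ± 0.13, adjusted p = 0.0061). None of 16 measured interferon gamma response genes passed in edgeR or DESeq2 under SHP099 (median -0.54, 1 gene at an unadjusted p under 0.05 in edgeR) or the combination (median -0.42, 0 genes). The antiviral protein Bst2 rose by 1.05 under SHP099 (adjusted p = 0.0235), and the interferon regulator Irf7 fell by 1.30 under the combination (0.0171), each in 8 of 12 fits.

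Single mucin, gastric and checkpoint genes passed. Of 8 measured gut-type and gastric genes 1 rose and 3 fell under SHP099, and 1 rose and 1 fell under the combination. The gastric and airway mucin Muc5ac had 24.5, 22.7 and 13.4 CPM in the combination mice, against 0.294, 0.826 and 0 CPM in the vehicle mice, with the airway list raised in the same mice, as given above. Anxa10, a gene of gastric epithelium, had 18.2, 4.59 and 5.41 CPM with SHP099 and 40.1, 24 and 52.9 CPM with vehicle (-2.17 ± 0.48, adjusted p = 0.00727). In cells with 2 or fewer neutrophil UMIs 0 of 7 measured genes of its list passed lower under SHP099 in edgeR. Of 7 measured checkpoint ligands 1 rose and 1 fell under SHP099, where 13.6% of all genes passed, and 1 rose under the combination, where 8.91% passed. Pvr, a ligand of the receptor TIGIT, had 30.3, 27.5 and 34.6 CPM with SHP099 and 17.9, 22.7 and 21.9 CPM with vehicle (0.57 ± 0.17, adjusted p = 0.0369), and passed in 7 of 12 fits that left out 1 mouse. Cd47, which inhibits phagocytosis, had 254, 251 and 236 CPM with SHP099 and 311, 327 and 355 CPM with vehicle (-0.42 ± 0.11, adjusted p = 0.0211), and passed in 9 of 12 fits. The costimulatory ligand Cd80 had 14.6, 8.16 and 17.9 CPM with the combination and 3.63, 4.75 and 5.79 CPM with vehicle (1.48 ± 0.33, adjusted p = 0.0103), also in 9 of 12 fits. In cells with 2 or fewer neutrophil UMIs 5 checkpoint ligands were measured. None of them passed under the combination in edgeR or had an unadjusted p under 0.05, and under SHP099 none passed higher and 1 lower. Srebf2, the regulator of cholesterol synthesis, rose by 0.43 under SHP099 (adjusted p = 0.0105), the only 1 of 19 measured genes of sterol and fatty acid synthesis that passed.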
